A study of Drosophila melanogaster with 3 samples.

Results

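The genes of the mitochondrial ribosome were examined for binding of E(spl)mgamma-HLH in Drosophila melanogaster embryos. The set held 73 of the 13945 protein-coding genes on the main chromosome arms, chosen as every protein-coding gene whose symbol starts with mRpL or mRpS and a number in the Ensembl annotation, 47 of the large and 26 of the small subunit. Chromatin immunoprecipitation with sequencing (ChIP-seq) used an antibody against GFP on a transgenic line with GFP joined to the C terminus of E(spl)mgamma-HLH. The labels do not give the promoter of the transgene. Whole embryos of mixed sex, aged 0 to 16 hours, gave 3 biological replicates of a single group. A control group was not analysed here, and in whole embryos a site bound in few cells cannot be told apart from a site bound weakly in many.

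The mitochondrial ribosome, or mitoribosome, translates the few messages that the mitochondrial genome still encodes, which in animals are core subunits of the respiratory chain and the ATP synthase. All of its proteins are encoded in the nucleus and imported, while its RNAs come from the mitochondrial genome. Some of the proteins descend from bacterial ribosomal proteins and others were added in mitochondria. E(spl)mgamma-HLH is a basic helix-loop-helix repressor of the Hairy/E(spl) family whose gene is switched on by Notch signalling. Proteins of this family are known to bind the E-box CACGTG, the class C site CACGCG and the N-box CACNAG.

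A reproducible peak lay at 29 of the 73 genes (39.7%), against 26.4% of all protein-coding genes, when a peak summit in the gene body or within 1 kb upstream was counted. Reproducible means here that the peak belongs to the authors' set of 4524 dm6 peaks that passed their analysis of reproducibility over the replicates. The best summit, that of the peak of highest signal, lay within 500 bp of a transcription start at all 29 genes. For short genes the counting rule itself nearly fixes this: of all 1003 genes with a body up to 2000 bp and a peak, 96% had their best summit there. At 28 genes it was within 500 bp of the gene's own start, 26 times upstream of it and 2 times downstream. Of the 29 best summits, 18 were nevertheless closer to the start of another gene, in most cases that of a neighbour standing head to head. Upstream and downstream summits, and summits closer to another gene, were not counted in this way over all genes.

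The DNA under the strongest of these summits is given first, because all later values refer to it. For 6 of the genes below, the summit base and the 50 bp on each side of it are printed, and for mRpS2 the whole space between its start and that of its neighbour Mon1. All are dm6 sequences from RefSeq, 5' to 3' on the strand of the mitoribosome gene, and touch no annotated exon. Capitals mark matches, on either strand, to the E-boxes CACGTG and CAGCTG, the class C site CACGCG, the N-box CACNAG, the DREF element TATCGATA, the motif 1 core GGTCACAC, GAGAG, the ETS site CCGGAAG and the Ewg site GCATGCGC.
mRpS10 (chr3R:15229481-15229581, plus strand): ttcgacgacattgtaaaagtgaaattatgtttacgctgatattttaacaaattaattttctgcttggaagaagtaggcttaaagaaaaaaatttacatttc
mRpS23 (chr2L:13835403-13835503, minus strand): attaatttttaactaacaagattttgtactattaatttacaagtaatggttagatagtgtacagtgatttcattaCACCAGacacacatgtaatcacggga
mRpS2 (chr2L:4850420-4850640, minus strand): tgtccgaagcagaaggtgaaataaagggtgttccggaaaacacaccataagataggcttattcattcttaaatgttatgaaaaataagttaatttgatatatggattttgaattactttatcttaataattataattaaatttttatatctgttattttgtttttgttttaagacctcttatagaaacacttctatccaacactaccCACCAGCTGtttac
mRpL24 (chr2L:4945464-4945564, minus strand): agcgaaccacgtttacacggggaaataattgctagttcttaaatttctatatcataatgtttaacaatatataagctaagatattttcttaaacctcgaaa
mRpL4 (chr2L:16329195-16329295, minus strand): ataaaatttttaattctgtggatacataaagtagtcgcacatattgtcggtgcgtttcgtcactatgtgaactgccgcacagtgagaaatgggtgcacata
mRpL20 (chr3L:13018123-13018223, minus strand): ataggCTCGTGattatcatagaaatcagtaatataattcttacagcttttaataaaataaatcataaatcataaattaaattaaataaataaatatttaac
mRpL37 (chr3R:10784175-10784275, minus strand): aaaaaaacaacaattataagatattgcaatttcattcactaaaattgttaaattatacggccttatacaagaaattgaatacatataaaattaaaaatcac

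The windows were rich in A and T and held few of these motifs. The GC content of the printed summit windows was 26.7% at mRpS10, 28.7% at mRpS23 and at mRpL24, 39.6% at mRpL4, 16.8% at mRpL20 and 19.8% at mRpL37. Those of mRpS10, mRpL24, mRpL4 and mRpL37 matched none of the 9 motifs, and those of mRpS23 and mRpL20 each held an N-box. In the mRpS2 space, an N-box and a CAGCTG overlap at the end next to the mRpS2 start, far from the summit at base 63 of the printed sequence. Over the 29 best summits the median GC content of these windows was 30.7%, and over all 4524 summits it was 33.7%.

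Of the small-subunit genes, mRpS10 and mRpS23 had the highest peaks. Peaks were ranked by signal, 1 being the highest, within the reproducible set and within each replicate's own list. The protein encoded by mRpS10 belongs to the head of the small subunit. Its peak (chr3R:15229339-15229722) had set rank 8, and ranks 6, 11 and 7 in replicates 1, 2 and 3. The summit lay 134 bp upstream of mRpS10 and 123 bp upstream of Art3, an arginine methyltransferase gene on the opposite strand, almost midway in the 257 bp between their starts. The mRpS23 peak (chr2L:13835267-13835653) had set rank 10 and replicate ranks 12, 6 and 11. Its summit was 381 bp upstream of mRpS23 but only 111 bp from the start of CenG1A, which encodes a GTPase-activating protein for ARF. Both peaks were thus among the 12 highest of every replicate list.

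The other small-subunit genes stood lower, and their ranks spread more. The peak of mRpS2 had set rank 275 and replicate ranks 220, 383 and 323, with the summit 159 bp upstream of mRpS2 and 63 bp from Mon1, an endosomal trafficking gene. At mRpS26 the set rank was 1972 and the replicate ranks were 1663, 3871 and 1574, with the start of CG13698 nearer (187 bp) than that of mRpS26 (243 bp). The peak at mRpS7, another head protein, was rank 2247 with 2679, 2929 and 2156 in the replicates, and here the mRpS7 start was the nearer one, at 173 bp. These replicates placed mRpS7 within a narrow band, while replicate 2 ranked mRpS26 far lower than the others did. The peak between mRpS22 and CG5003 was rank 2333, with 2085, 2851 and 2029. The peak between mRpS24 and Apc2, a gene of the APC family of the Wingless pathway, was rank 2557, with 3264, 3040 and 2728. In both, the partner's start was nearer to the summit, at 139 bp for CG5003 and 155 bp for Apc2.

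The gene mRpS9, whose protein is known in bacteria to reach the P-site tRNA, differed from the other 28 in position. Its annotated body spans 13391 bp, and its best summit lay 7009 bp inside it, 164 bp upstream of wtrw, which encodes a TRP channel. That peak had set rank 2078 and replicate ranks 2782, 1490 and 2621. A second reproducible peak (rank 3361, with 2369, 4171 and 4706 in the replicates) lay in intronic sequence 9749 bp inside the gene. No other member had more than 1 reproducible peak, and this was the only member peak outside a promoter. No reproducible summit lay within 500 bp of the mRpS9 start itself.

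Among large-subunit genes, mRpL41 and mRpL23 stood apart from the rest. The mRpL41 peak (chr2R:15217557-15217961) had set rank 11 and replicate ranks 7, 15 and 12. Its summit lay 126 bp upstream of mRpL41, the nearest start, with no gene head to head. The peak of mRpL23, whose protein sits at the exit of the peptide tunnel, had set rank 44 and replicate ranks 43, 57 and 44. Its summit was 62 bp downstream of the start, inside transcribed sequence, one of 2 such cases, the other being mRpL42. With mRpS10 and mRpS23, mRpL41 put 3 mitoribosome genes among the 11 highest of the 4524 reproducible peaks. The limit of 11 is the rank of mRpL41 itself, and all genes at that limit were not counted. The count of 3 therefore cannot be read against all genes. At rank 452 or better, a limit not taken from these genes, stood 5 of the 29 mitoribosome genes with a peak. Of all 3680 protein-coding genes with a peak, 573 did. At mRpS10 and mRpS23 the start of another gene was nearer to the summit.

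A middle group of large-subunit genes lay between ranks 532 and 967. The peak of mRpL24 was rank 532, with 625, 493 and 513 in the replicates. Its summit was 65 bp from betaggt-I, a subunit gene of a protein-prenylating enzyme, and 153 bp from mRpL24. At mRpL34 the rank was 854 (773, 858 and 1053), and Dg, the dystroglycan gene, was nearer. These ranks lay close together in all 3 replicates, as did those at mRpL4 and mRpL20. The mRpL4 peak was rank 925 (845, 1161 and 887) and had the mRpL4 start as the nearest, at 113 bp. The mRpL20 peak was rank 952 (1125, 915 and 832), 93 bp from Icmt, an isoprenylcysteine methyltransferase gene, and 306 bp from mRpL20. For mRpL37 the rank was 967, but replicate 2 placed it at 1867 and replicates 1 and 3 at 661 and 724. Its own start was the nearest, at 133 bp.

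The remaining large-subunit peaks among the 20 highest had set ranks between 1340 and 2514. The mRpL47 peak was rank 1340 (882, 2809 and 1166), and CG8176 was the nearest gene. The peak of mRpL32 was rank 1423 (2338, 1422 and 983), 133 bp from mRpL32 and 131 bp from qless, a gene of coenzyme Q synthesis, so the 2 starts were almost equally close. At mRpL11, whose protein forms the base of the ribosomal stalk, the rank was 1846 (1195, 2513 and 2609), and the summit was 89 bp inside HtrA2, which encodes a mitochondrial protease. None of these had its own start as the nearest. The mRpL53 peak was rank 2086 (2137, 2379 and 2190) and lay 81 bp upstream of a start that CG33155 shares, so the 2 genes cannot be told apart. For mRpL39 the rank was 2514, and replicate 2 put the peak at 5255, below its 4524 highest, while replicates 1 and 3 gave 2126 and 1889.

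The 9 genes after these had set ranks between 2811 and 4223. In order they were mRpL18, mRpS18B, mRpL16, mRpS31, mRpL35, mRpL42, mRpL21, mRpL17 and mRpL54. The neighbours with the nearer start were Taz at mRpL18, Mitofilin at mRpL35, rept at mRpL21, Tudor-SN at mRpL17 and CG15653 at mRpL54. Of these, Taz and Mitofilin are genes of mitochondrial membrane structure. At mRpL42 and mRpL54, no peak of replicate 1 held the summit. The other 27 best summits lay inside a peak of every replicate list, and 22 (75.9%) lay in one of the 4524 highest peaks of all 3 replicates, against 68.5% of all reproducible peaks. A further 4 met this in 2 replicates, 2 in 1 replicate and mRpL42 in none.

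**Figure D1:**
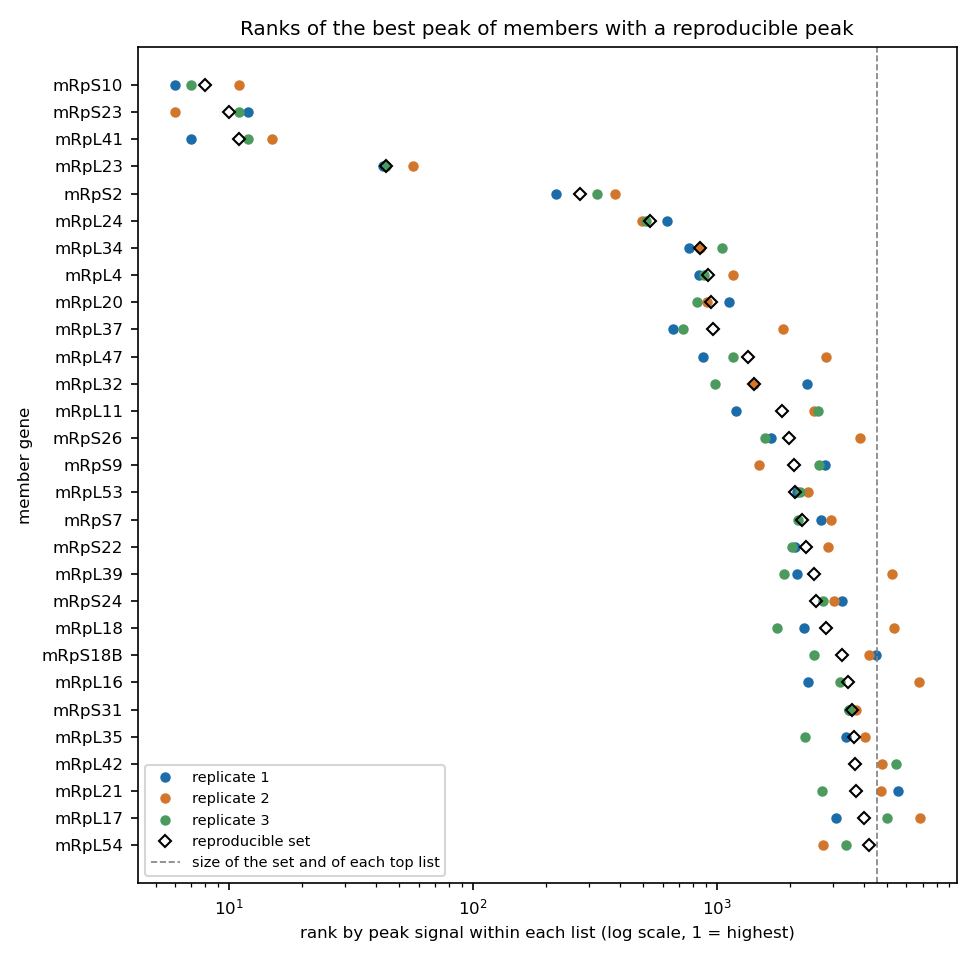
Rank of each mitoribosome gene's best peak by signal (x axis, log scale, 1 is the highest) in the reproducible set (diamonds) and in replicates 1 to 3 (coloured points), for the 29 genes with a reproducible peak. The 4 genes at the top keep all points between ranks 6 and 57, while among lower genes the replicates can lie far apart, as for mRpL39 and mRpL16.

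The 29 best peaks were spread through the set. Their median rank was 2078, where the middle of the set is 2262.5 and the median best rank of all genes with a peak is 1719. Of the 29, 17 ranked above the middle of the set and 5 at rank 452 or better, the highest 10% of peaks. Of all 3680 protein-coding genes with a peak, 2263 had one above the middle and 573 one in the highest 10%. Median peak width was 384 bp for both the 29 peaks and the set.

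Most of these summits lay in the short space between diverging genes. A gene was called head to head when an oppositely oriented protein-coding gene started within 500 bp upstream, which held for 51 of the 73 mitoribosome genes (69.9%) and for 25% of all protein-coding genes. A reproducible summit lay within 500 bp of the start at 25 of those 51 (49%), against 41.3% of all head-to-head genes. Among the 22 others the count was 3 (13.6%), against 13.2% of all such genes, the 3 being mRpL41, mRpL4 and mRpL53. Without that division, 28 of 73 (38.4%) had a summit within 500 bp of the start, against 20.2% of all genes. The excess over all genes was therefore 18.1 percentage points undivided, 7.74 among head-to-head genes and 0.439 among the others. Both genes of a pair can count the same peak, in the mitoribosome set and in all genes alike.

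Inside the pairs, the summit was more often nearer the partner. Chromatin had been sheared to fragments of 200 to 800 bp, a size of the same order as these spaces. For 21 of the 25 pairs the summit lay between the 2 starts, which were 99 to 492 bp apart with a median of 306 bp. It was nearer the partner's start in 15 and nearer the mitoribosome gene's in 6. These counts were not made over all head-to-head genes, so they describe these pairs only. The median distance to the nearest start was 102.5 bp, against 113 bp for the 2150 reproducible summits within 500 bp of any protein-coding start. When a summit was given only to the gene with the nearest start within 500 bp, 11 mitoribosome genes (15.1%) kept one, against 14.7% of all genes. With no limit on the distance the order turned, at 16.4% against 22.5%, and so it did with summits in the gene body alone, at 4.11% against 11.3%.

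**Figure D2:**
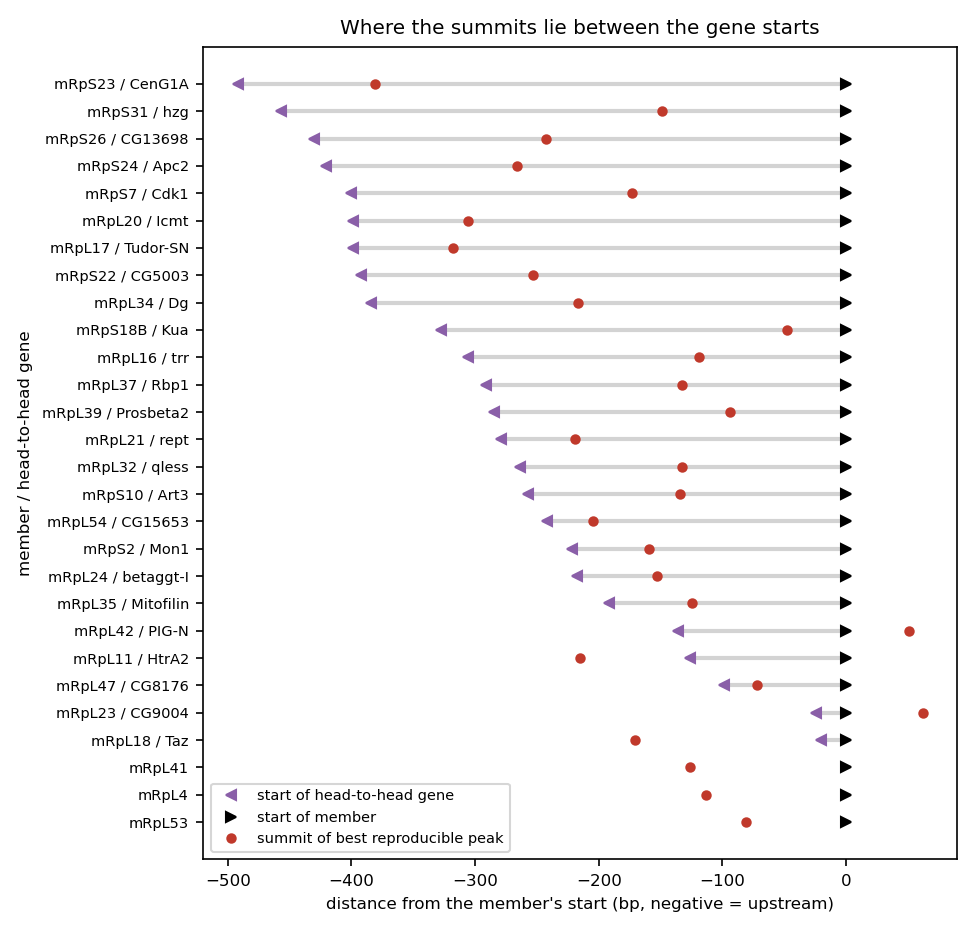
Summits of best reproducible peaks (red points) along the distance from the mitoribosome gene's start (x axis, bp, negative is upstream), for the 28 genes with a summit within 500 bp, with the start of the head-to-head gene (purple triangles) where there is one. Grey lines span the space between the starts, in which 21 of the 25 summits of pairs fall.

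**Figure D3:**
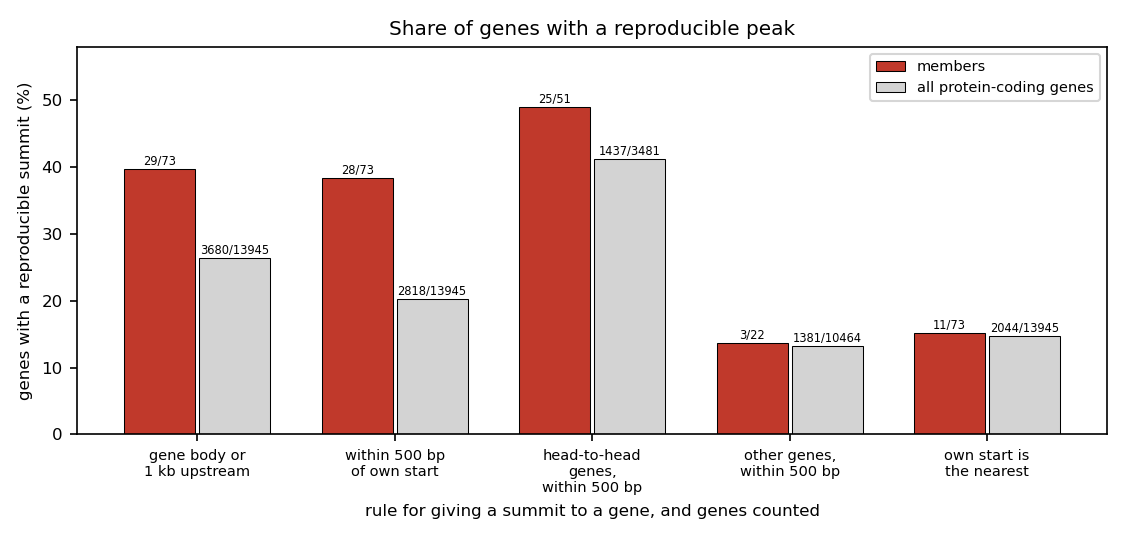
Share of genes with a reproducible summit (y axis, percent) under 3 rules for giving a summit to a gene, and under the 500 bp rule also for head-to-head and other genes apart. Red bars are mitoribosome genes and grey bars all protein-coding genes, with counts above the bars, which nearly level off for the genes not head to head and for the nearest-start rule.

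Mitoribosome genes are short, with a median body of 909 bp against 2166 bp for all protein-coding genes. Of the 70 with a body up to 2000 bp, 28 (40%) had a peak, against 15.4% of all genes that short.

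The shares were much the same across the parts of the ribosome. Peaks lay at 19 of 47 large-subunit genes (40.4%) and at 10 of 26 small-subunit genes (38.5%). Of 44 genes taken as having a bacterial counterpart, 18 had one (40.9%), and of the 29 others, taken as mitochondria-specific, 11 did (37.9%). The first class held mRpL numbers up to 36, mRpS numbers up to 21, and mRpS24 and mRpS28, which leaves mRpL47, a relative of bacterial L29, among the mitochondria-specific proteins. Likewise the products of mRpS18A and mRpS30, neither with a reproducible peak, sit in the large subunit in mammals. By arm, the X had 1 gene with a peak of 11, namely mRpL16, where 27.6% of all protein-coding genes on the X had one. The counts were 6 of 12 on 2L (all genes 25%), 6 of 12 on 2R (24.2%), 7 of 17 on 3L (27.9%) and 9 of 21 on 3R (27.6%). The difference between arms was not tested.

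Each replicate on its own gave a higher share for mitoribosome genes than for all genes. In replicate 1, 33 genes (45.2%) held a summit with a q-value below 0.05, against 29.8% of all genes. Replicate 2 gave 48 (65.8%) against 45.8%, and replicate 3 gave 39 (53.4%) against 34.7%. All 3 replicates did so at 31 genes (42.5%), against 27.1% of all genes. In the pooled list the count was 43 (58.9%), against 37.9%. The replicate 2 list held the most peaks, 30000 against 23367 and 24251, and the part of list length in these shares was not tested.

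Of the 44 genes without a reproducible peak, 14 had a pooled summit with a q-value below 0.05 and a further 15 only a weaker one, which left 15 with none in that list. Of all 13945 protein-coding genes, 3680 (26.4%) had a reproducible summit, 5287 (37.9%) a pooled one with a q-value below 0.05 and 7924 (56.8%) any pooled summit. Counted in the same way, the mitoribosome genes had 29 (39.7%), 43 (58.9%) and 58 (79.5%) of 73. Among the 44, the highest pooled summit was at mRpS30, at pooled rank 4537 and replicate ranks 3047, 10753 and 6283. Next came mRpL50 at pooled rank 4806 (3890, 5723 and 5669), mRpL9 at 4819 (5308, 5262 and 4248), mRpL27 at 5008 (3533, 3878 and 4786) and mRpS21 at 5228 (4438, 9876 and 3174). These 5 were the only ones of the 44 with a q-value below 0.05 in every replicate. The count in 2 replicates was 4, in 1 replicate 13 and in none 22. The same counts were not made over all genes without a reproducible peak. No list held a summit at mRpL14, mRpL15, mRpL40, mRpL45, mRpS28, mRpS33 or mRpS35.

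Other mitochondrial lists are read against the 26.4% of all protein-coding genes with a peak, with no test of the differences. Neither tko nor bonsai, mitoribosome genes under other names, had a reproducible peak. Among the mitochondrial aminoacyl-tRNA synthetases, which charge the tRNAs that the mitoribosome uses, 3 of 15 had one (20%). None of the 15 held the nearest start to a summit within 500 bp. The highest was LeuRS-m at rank 250, with the summit 838 bp upstream of it and nearer the start of Dhc64C. Of the 20 mitochondrial translation and nucleoid genes, 2 had a reproducible peak (10%). These were mtSSB, the mitochondrial single-stranded DNA-binding protein, at rank 500 and mTerf5, a transcription termination factor family gene, at rank 1567. For the respiratory chain and ATP synthase, whose core subunits the mitoribosome makes, the count was 22 of 84 (26.2%). Of these 84, 14.3% held the nearest start to a summit, against the 15.1% of mitoribosome genes. The 84, picked by symbol, include paralogs with L added to the name, such as COX4L and ND-51L1. None of those paralogs had a reproducible peak, which lowers both shares. Cytoplasmic ribosomal protein genes had 54 of 92 (58.7%), and 46.7% of them held the nearest start. The share of head-to-head genes was 38% among the cytoplasmic and 69.9% among the mitochondrial ribosomal protein genes.

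Many mitoribosome promoters shared a sequence that the choice of genes did not use, and it seldom lay at the summits. In the 300 bp from 250 bp before to 50 bp after the start, the E-box CAGCTG was found at 40 of 73 genes (54.8%) and in 17.7% of all protein-coding promoters. This hexamer is not among the sites named above for the Hairy/E(spl) family. It is also the core of a known Drosophila core promoter motif, motif 5. Its share was 58.6% at mitoribosome genes with a reproducible peak and 52.3% at those without. Of all promoters with a reproducible summit within 500 bp of the start, 23.6% held CAGCTG. Within 50 bp of the summits it was found at 1 of 29 genes (3.45%), and at 4% of all 4524 summits. Over the whole width of the peak it was found in 11 of the 29 best peaks (37.9%), in 16.2% of all reproducible peaks and in 21.2% of the 2150 peaks with a summit within 500 bp of a protein-coding start.

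The sites sat at the start of the gene. Of 45 CAGCTG sites in mitoribosome promoters, 36 (80%) began within 50 bp of the start, against 49.7% of the 2776 sites in all promoters. Counted by gene, 47.9% of mitoribosome genes and 9.3% of all genes had such a site. The share was 48.3% with a reproducible peak and 47.7% without. Where a gene had both a start site and a summit within 500 bp, 14 cases, the site lay downstream of the summit in 13, at a median of 148 bp and never nearer than 68 bp. At mRpL23, whose summit is inside the gene, it lay upstream. The choice of sites near the start nearly fixes this order, because 26 of the 28 summits within 500 bp lay upstream of the start. The same was not counted over all genes. The site was inside the peak in 7 of the 14, namely mRpS2, mRpS18B, mRpL23, mRpL35, mRpL41, mRpL53 and mRpL54, and outside it in the others. This look at positions was chosen after the shares were seen.

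The sites of 11 of these 14 genes are printed with 8 bases on each side, next to genes of very different peak rank. Those of mRpL41, mRpL53 and mRpL54 are not printed, because no sequence of their chromosome arm is shown here. They run 5' to 3' on the strand of the gene, in dm6, and capitals mark CAGCTG.
mRpL23 (chr3L:2373719-2373740, minus strand): ttgacaatCAGCTGtttaaaac
mRpS2 (chr2L:4850417-4850438, minus strand): ctacccacCAGCTGtttaccaa
mRpL24 (chr2L:4945328-4945349, minus strand): gttctcaaCAGCTGattgcaag
mRpL47 (chr3R:9515877-9515898, minus strand): tattgcttCAGCTGttttgttc
mRpL32 (chr3R:31252848-31252869, plus strand): cgatagcaCAGCTGtttcctct
mRpL11 (chr3R:14511825-14511846, plus strand): aataccatCAGCTGttgctgct
mRpS24 (chr3R:24163512-24163533, minus strand): acgtcaatCAGCTGttgctgga
mRpS18B (chr2L:20097220-20097241, minus strand): tcggaaaaCAGCTGatccgccg
mRpL35 (chr3R:22023514-22023535, plus strand): atggcacaCAGCTGactgttac
mRpL21 (chr3L:19255071-19255092, minus strand): tgctaacaCAGCTGttcgaaaa
mRpL17 (chr3L:264784-264805, plus strand): atggtcgcCAGCTGttcggcga

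A pair of T after CAGCTG, or of A before it, stood in 10 of the 11 printed and in 12 of all 14. Over all start sites this longer form, CAGCTGTT on either strand, made up 25 of 36 (69.4%) in mitoribosome promoters and 47% in all promoters. The positions from the start ranged from 28 bp upstream at mRpL23 to 20 bp downstream at mRpL24, mRpS24 and mRpS18B, with mRpL11 and mRpL35 at 5 bp upstream.

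**Figure D4:**
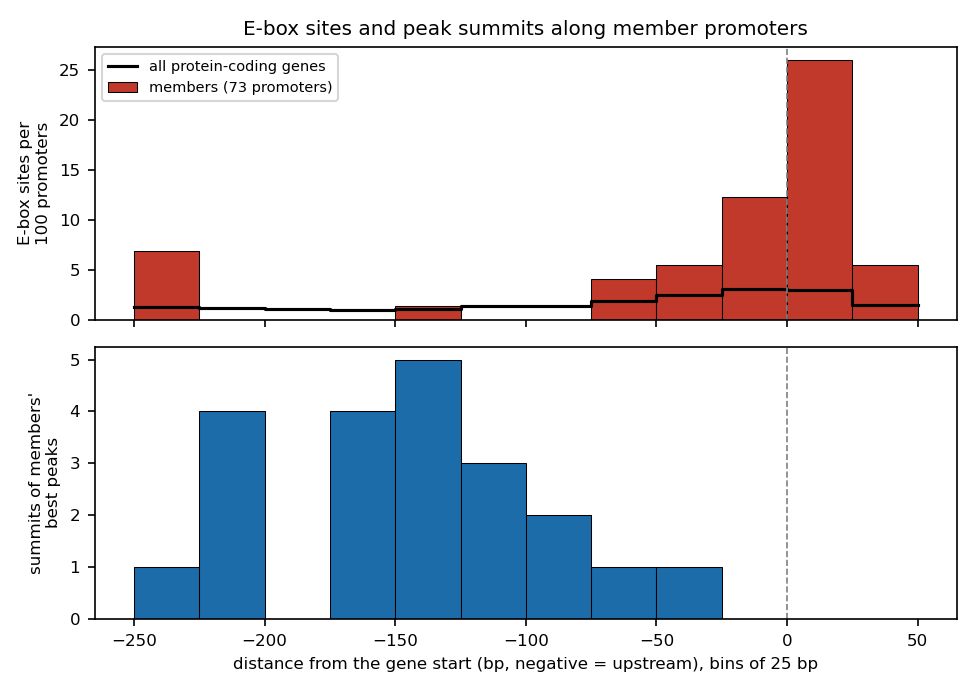
Positions along the promoter (x axis, bp from the gene start, bins of 25 bp) of the E-box CAGCTG per 100 promoters (upper panel, red bars for 73 mitoribosome genes, black line for all protein-coding genes) and of the best summits of mitoribosome genes (lower panel, 21 of 29 fall in this window). Sites peak at 26 per 100 promoters in the 25 bp from the start on, where no summit lies, and 18 of the 21 summits fall in the bins from -225 to -76 bp.

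Head-to-head arrangement went with the E-box in all genes but not within the mitoribosome set. Of head-to-head genes, 54.9% of the mitoribosome set and 24.7% of all had it, and of the other genes 54.5% and 15.3%. The site was also frequent in other genes of mitochondrial gene expression, with 7 of 15 aminoacyl-tRNA synthetases (46.7%), 10 of 20 translation and nucleoid genes (50%), and both tko and bonsai. Its share was 23.8% in respiratory chain and ATP synthase genes and 9.78% in cytoplasmic ribosomal protein genes. The list with the highest share of peaks thus had the lowest share of this E-box.

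Other motifs differed less. TATCGATA, the element bound by DREF, was in 20.5% of mitoribosome promoters and 9.36% of all. Its share was 27.6% at mitoribosome genes with a peak and 15.9% at those without. In all promoters with a reproducible summit within 500 bp of the start, its share was 15.4%. It lay at none of the 29 summits, against 1.95% of all summits. GGTCACAC, the core of motif 1 bound by M1BP, was in 11% against 7.7%, with 0 of 29 promoters of genes with a reproducible peak and 8 of 44 (18.2%) without. Of all promoters with a reproducible summit within 500 bp of the start, 10.9% held it. GAGAG was rarer than in all promoters, at 16.4% against 29.7%. The sites described for Hairy/E(spl) proteins were near the level of all promoters: CACNAG in 32.9% against 29.7%, CACGCG in 5.48% against 6.12% and CACGTG in 6.85% against 4.2%. At the 29 summits CACNAG was found 5 times (17.2%, against 10.5% of all summits). CACGTG was found there 1 time (3.45%, against 0.818% of all summits) and CACGCG not at all (against 1.17%). The ETS site CCGGAAG was in no mitoribosome promoter and in 1.09% of all, and the Ewg site GCATGCGC in 1.37% against 1.05%. The motifs overlap in part, as where CACCAGCTG holds both an N-box and an E-box, and a match describes the letters of the window only.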

How the data were processed

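Peak lists of ChIP-seq in 3 samples, labelled as biological replicates, were used as deposited in dm6. The authors called peaks on each replicate and on the pooled reads and derived the reproducible set, per the deposited records. The sources used here do not name the caller, the aligner or the thresholds. Per the narrowPeak layout of the deposited lists, signal is a coverage-type value not normalised between lists, so only ranks within a list were used. The q-value is deposited on the −log10 scale. The deposited score column was not used. Without counts the depth is unknown.

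A summit is the peak start plus its deposited offset. Genes came from Ensembl release 115 (BDGP6.54), sequence from RefSeq. Python 3.11.15, numpy 2.4.6 and matplotlib 3.10.9 were used, and the assignment was tested on simulated summits. With 1 group no test was made: shares stand beside those of all 13945 protein-coding genes.

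The genes and lists were chosen with earlier results of these data known. Replicate values are given for the 20 genes with the highest peaks, those with more than 1 peak or a peak outside promoters, and the 5 highest without a reproducible peak. Names of head-to-head partners beyond the nearest gene are labels only. Summit sequences are shown for genes among the 10 highest, and start sites, chosen after their values were seen, for genes with a peak.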

Additional observations from a re-analysis of the deposited data

How the results depend on the processing

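The count of 29 mitoribosome genes with a reproducible peak, and of 28 with one within 500 bp of the start, depended on the list and on how a summit was given to a gene. Peaks above the middle rank of the set left 17 and 16 (23.3% and 21.9%, against 16.2% and 12.2% of all genes), and the whole pooled list, background regions included, gave 58 and 56 (79.5% and 76.7%, against 56.8% and 43.7%). The order against all genes turned with body only, 3 genes (4.11% against 11.3%), and with the gene's own start nearest at any distance, 12 genes (16.4% against 22.5%). Within 500 bp that rule left 11 (15.1% against 14.7%). Of the genes not head to head, 3 had a summit within 500 bp (13.6% against 13.2%). Requiring top peaks in the other replicates, without replicate 1, 2 or 3 in turn, gave 22 to 25 and 21 to 24. These were 30.1% to 34.2% (all genes 21% to 22.9%) and 28.8% to 32.9% (all genes 15.8% to 17.5%). The top peaks of 1 replicate alone gave 25 to 32 and 24 to 29. These were 34.2% to 43.8% (all genes 25% to 26.7%) and 32.9% to 39.7% (all genes 19.1% to 20.5%). RefSeq gene bodies gave 29 (39.7% against 26.4%). The subsets by body length, by head-to-head arrangement and by nearest start within 500 bp, and the search of whole peaks for CAGCTG were chosen after seeing the data. No paired analysis was possible because there is 1 group and no test. The list lengths limit what ranks can show, and depth is unknown.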
